A study of Mus musculus with 4 samples.

Results

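Messenger RNA levels of 31 genes of fatty acid and triglyceride synthesis were described in mouse liver after the aromatic solvent ethylbenzene. The genes were chosen by symbol for their role in the pathway, and each was represented by its probe set of highest mean signal. All 31 had a probe set, out of 18193 genes with 1 on the array, and 30 of them passed a filter on low signals that 11509 genes passed. The array held 69 probe sets for these genes.

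Livers came from C57BL/6J mice 2 months of age (sex not given in the labels) that had 2 exposures. The first exposure was 2 intraperitoneal injections given 24 h apart, the second followed 7 days later, and tissue was taken 5 h after it. Each exposure was either ethylbenzene at 7 mmol per kg or phosphate-buffered saline (PBS). Group names join the 2 exposures in order of time: P+E (PBS, then ethylbenzene, 5 mice), E+E (ethylbenzene both times, 5 mice), E+P (ethylbenzene, then PBS, 3 mice) and P+P (PBS both times, 3 mice). RNA of the mice of a group was pooled and measured on 1 Affymetrix array, so no value has an error between animals, no difference could be tested, and the number of mice per pool cannot be told apart from the second exposure. Genes are instead counted where 2 arrays were at least 2-fold apart.

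The liver makes fatty acids from citrate that leaves the mitochondria. Citrate is split to acetyl-CoA, carboxylated to malonyl-CoA and built into palmitate by fatty acid synthase, and the product is elongated, desaturated and joined to glycerol phosphate to give triglyceride. The transcription factor SREBP-1c, which insulin turns on, and the carbohydrate-responsive factor ChREBP drive most of these genes, which are typically low in fasting and high after feeding.

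Signals below are quantile-normalized over the 4 arrays, in arbitrary units, and are not compared between genes. Ratios are differences of log2(signal + 43.2), and folds are taken on the same scale, so that differences of weakly detected genes come out too small. A signal of 120 was the filter level, at the median of all probe sets. The liver label was borne out by the 10 hepatocyte markers examined, Alb and Ttr among them, which all passed the filter and were all less than 2-fold apart in the 4 comparisons. On the P+P array the 18S and Pcx controls stood apart from the other arrays. Values of controls are from the deposited signals, before normalization. For 18S ribosomal RNA the geometric mean signal (3 probe sets) was 145 on P+E, 182 on E+E, 122 on E+P and 1872 on P+P. Pcx, a control with probe sets at both transcript ends, had a 3' to 5' ratio of 6.15, 12.0, 7.21 and 23.5 in the same order. The same ratio was closer between arrays for Actb, at 3.48, 3.77, 3.84 and 4.55, and for Gapdh, at 0.94, 0.97, 0.91 and 1.06. Since E+E and E+P are compared without the P+P array, each second-exposure result below is given for both pairs.

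The question here was how the pathway stood 5 h after a dose of ethylbenzene. It was asked of P+E against P+P, whose mice had PBS as the first exposure, and of E+E against E+P, whose mice had ethylbenzene. In this order, 6 and 9 of the 30 genes were at least 2-fold lower, or 20.0% and 30.0%, where 6.86% and 6.86% of all genes past the filter were. At least 2-fold higher were 2 and 2, or 6.67% each, close to the 6.63% and 7.04% of all genes. The median log2 ratio of the 30 genes was -0.27 and -0.40, beside -0.07 and -0.05 for all genes. In both pairs 5 genes were at least 2-fold lower (1.9% of all genes were): Srebf1, Mid1ip1, Aacs, Elovl6 and Lpin2. Pnpla3 alone was counted as at least 2-fold higher in both (2.94% of all genes). That count rests on PBS signals below the filter level, and with these set to the level Pnpla3 was 1.98-fold higher in the second pair. Both arrays after a second dose of ethylbenzene lay below both arrays after PBS for 17 of the 30 genes (31.2% of all genes) and above them for 5 (22.3%). Lower by any amount in both pairs were 20 (37.4% of all genes) and higher 6 (27.7%). With E+P in place of P+P, an alternative added with the results in view, P+E had 7 genes at least 2-fold lower (6.39% of all genes) and 2 higher (6.44%). The 10 hepatocyte markers had medians of 0.01 and -0.08 in the 2 pairs. The part of the share of hepatocytes in the ratios of the pathway was not tested.

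**Figure D1:**
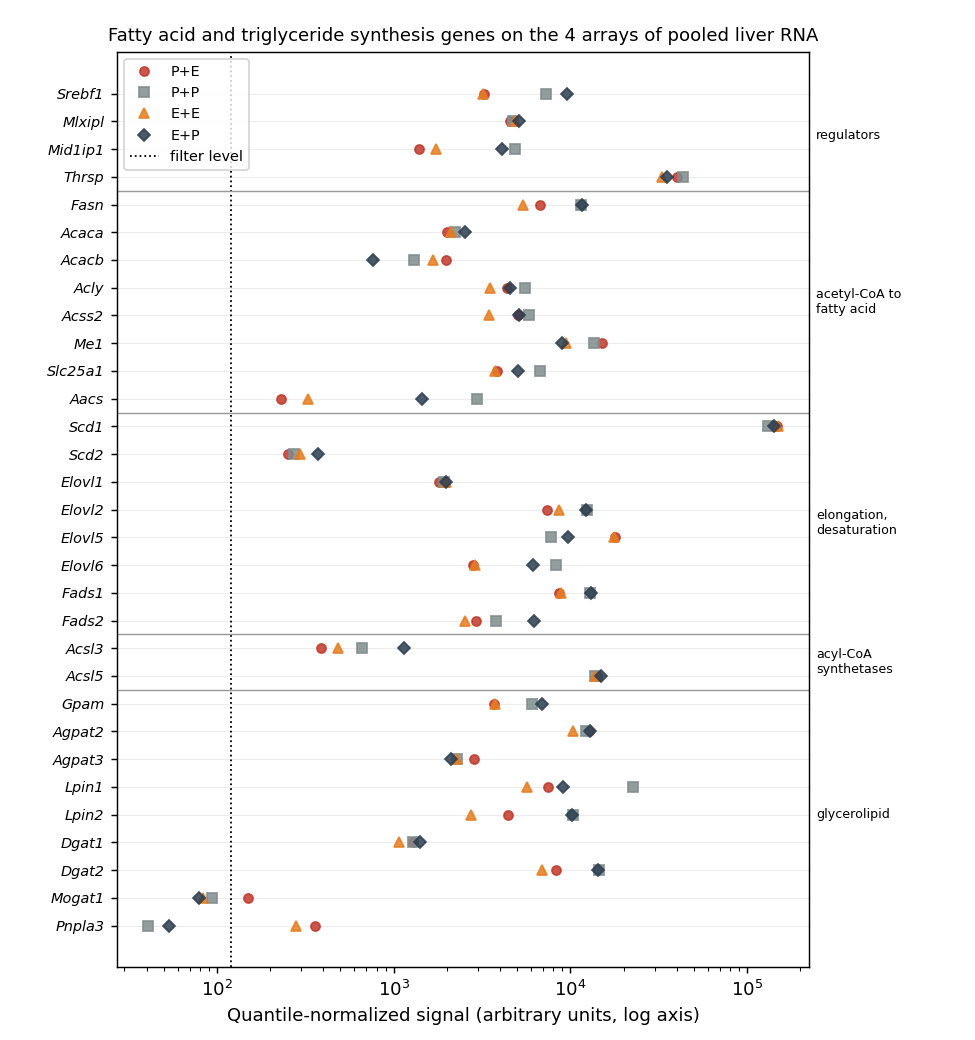
Quantile-normalized signal (log axis, arbitrary units) of the 31 genes, 1 row each, ordered by role, on the arrays P+E, P+P, E+E and E+P; each point is 1 array of pooled RNA, with no error bars because there are no replicates, and the dotted line is the filter level of 120. The P+E and E+E points of Srebf1, Mid1ip1, Aacs, Elovl6 and Lpin2 lie left of their P+P and E+P points, while those of Elovl5 and Pnpla3 lie right of them.

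The upstream sequence of 3 genes at least 2-fold apart in both pairs is shown, so that its letters can be read beside the ratios. Promoters of 250 bases before and 50 bases after a transcription start were taken from RefSeq (build GRCm38.p6), and 26 of the 31 genes matched, with 35 promoters. Motifs were searched on both strands. The E-box CACGTG, a site for ChREBP and its partners among other factors, was found in 4 of the 35, those of Elovl5, Lpin2, Mlxipl and Slc25a1, where 7.15% of all 32851 promoters hold it. The CCAAT box was found in 18 of them, against 37.4% of all. A degenerate sterol regulatory element, TCACNCCAC, was in 1, that of Mlxipl (1.24% of all). Only stretches matching the letters of each motif were counted, so promoters without a match can still hold other forms of these sites. The direct repeat of AGGTCA with 4 bases between its copies, a form that liver X receptors bind, was in none (0.0152% of all). With these exact letters in only 5 of all 32851 promoters, their absence from the 35 says nothing about liver X receptor binding. In the lines below, capitals mark an E-box or a CCAAT box, read as ATTGG on the other strand. The Srebf1 sequence is 1 of 3 starts at chr11:60210422-60210721 on the minus strand, with its CCAAT box 30 bases before the start. The Lpin2 sequence, also 1 of 3 starts, is at chr17:71183282-71183581 on the plus strand and has its E-box 9 bases before the start. The Pnpla3 sequence is at chr15:84167566-84167865 on the plus strand, with its CCAAT box 99 bases before the start. No motif searched was found in the promoters of Mid1ip1, Aacs and Elovl6.
Srebf1: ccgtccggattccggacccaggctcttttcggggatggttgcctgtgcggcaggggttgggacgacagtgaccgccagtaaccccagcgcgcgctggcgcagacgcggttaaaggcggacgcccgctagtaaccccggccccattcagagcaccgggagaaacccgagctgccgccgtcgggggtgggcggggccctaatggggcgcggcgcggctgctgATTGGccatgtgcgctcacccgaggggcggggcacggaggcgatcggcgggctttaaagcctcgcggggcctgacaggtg
Lpin2: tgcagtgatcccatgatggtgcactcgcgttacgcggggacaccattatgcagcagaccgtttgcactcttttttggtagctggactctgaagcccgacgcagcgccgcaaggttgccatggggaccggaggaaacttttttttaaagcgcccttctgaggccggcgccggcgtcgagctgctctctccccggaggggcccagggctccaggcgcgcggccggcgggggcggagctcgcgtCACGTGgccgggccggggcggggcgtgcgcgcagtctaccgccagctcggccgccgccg
Pnpla3: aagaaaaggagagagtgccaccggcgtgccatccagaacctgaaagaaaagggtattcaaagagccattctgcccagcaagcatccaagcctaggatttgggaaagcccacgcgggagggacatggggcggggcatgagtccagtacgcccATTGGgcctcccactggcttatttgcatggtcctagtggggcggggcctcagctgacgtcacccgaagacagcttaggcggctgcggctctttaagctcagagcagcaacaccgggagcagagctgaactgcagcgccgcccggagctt

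Of the 4 regulators, 2 were at least 2-fold lower in both pairs, where 1.9% of all genes were, and 2 differed little. All 4 were below 0 in both pairs, where 37.4% of all genes were. Srebf1, which encodes SREBP-1, had a signal of 3256 on P+E against 7260 on P+P, and 3180 on E+E against 9563 on E+P. Both ethylbenzene arrays lay below both PBS arrays, and Srebf1 was 2.21-fold and 2.98-fold lower (log2 ratios -1.15 and -1.58). Mid1ip1, whose product promotes the assembly of acetyl-CoA carboxylase into active filaments, had 1391 on P+E against 4864 on P+P, and 1743 on E+E against 4089 on E+P. It was 3.42-fold and 2.31-fold lower (-1.78 and -1.21), again without overlap. Thrsp, the paralog of Mid1ip1 also known as Spot 14, was at 40255 on P+E against 43571 on P+P, and 32811 on E+E against 35208 on E+P, with log2 ratios of -0.11 and -0.10. Mlxipl, which encodes ChREBP, was at 4560 against 4724 and at 4844 against 5138 (-0.05 and -0.08). The paralogs Mid1ip1 and Thrsp thus had unlike ratios, and so had the genes of the 2 transcription factors.

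Among the 8 genes that lead from citrate, acetate or acetoacetate to palmitate, Aacs had the lowest ratios of all 30 genes. Aacs, a cytosolic enzyme that activates acetoacetate for lipid synthesis, had 232 on P+E against 2951 on P+P, and 327 on E+E against 1445 on E+P. All 4 signals were above the filter level, both ethylbenzene arrays were far below both PBS arrays, and the gene was 10.9-fold and 4.02-fold lower (-3.44 and -2.01). Set against E+P, P+E was 5.41-fold lower. A second Aacs probe set past the filter was at -2.62 and -1.33, and the mean over all its probe sets, 1 of them under the filter, at -1.92 and -1.12.

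Fasn, fatty acid synthase, was at 6718 on P+E against 11414 on P+P, and at 5376 on E+E against 11557 on E+P. Its 2 PBS arrays were nearly level, and it was 1.69-fold and 2.14-fold lower, past the 2-fold rule in the second pair. Slc25a1, the mitochondrial citrate carrier, was at 3852 against 6708 and at 3754 against 5028, or -0.79 and -0.42. Acly, which splits citrate, was at -0.34 and -0.37, and Acss2, which makes acetyl-CoA from acetate, at -0.20 and -0.57. Neither reached 2-fold, although on the probe sets used the ethylbenzene arrays lay below the PBS arrays for both genes. Of 5 Acly probe sets past the filter, 3 were lower in the first pair and 4 in the second. The strongest of the others was at 0.24 and -0.43, and its P+E signal of 3179 was above P+P (2694) and E+P (2942).

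The 2 acetyl-CoA carboxylases did not have ratios of 1 sign. Acaca, the cytosolic form that supplies malonyl-CoA to fatty acid synthase, was at 2002 on P+E against 2210 on P+P, and at 2113 on E+E against 2543 on E+P (-0.14 and -0.26). Acacb, the form at the mitochondrial surface whose malonyl-CoA restrains fatty acid oxidation, was at 1985 on P+E against 1296 on P+P, and at 1672 on E+E against 767 on E+P. Both ethylbenzene arrays lay above both PBS arrays for Acacb, which was 1.51-fold and 2.12-fold higher (0.60 and 1.08). Its second probe set past the filter was at -0.17 and 0.15. Me1, malic enzyme, which supplies NADPH, was at 15087 on P+E against 13663 on P+P, and at 9488 on E+E against 8914 on E+P (0.14 and 0.09). The other probe set of Me1 was at -0.48 and 0.34.

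Elongases differed among themselves. Elovl6, which lengthens palmitate to stearate and is a typical SREBP-1c target, was at 2798 on P+E against 8267 on P+P, and at 2887 on E+E against 6171 on E+P. It was 2.92-fold and 2.12-fold lower, and the groups did not overlap. Elovl5, which lengthens polyunsaturated fatty acids, was at 17814 on P+E against 7716 on P+P, and at 17646 on E+E against 9658 on E+P. It was 2.30-fold and 1.82-fold higher (1.20 and 0.87), but its other probe set, at 0.94 and 0.84, was short of 2-fold in both. Elovl2, which acts on longer polyunsaturated chains, was at -0.74 and -0.50, and Elovl1, which makes very long saturated chains, at -0.08 and 0.01.

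The front-end desaturases Fads1 and Fads2, which make polyunsaturated fatty acids, were lower to different degrees. Fads2 was at 2934 on P+E against 3768 on P+P, and at 2519 on E+E against 6217 on E+P, so it was 1.28-fold lower in the first pair and 2.44-fold lower in the second. All 3 of its probe sets were below 0 in both pairs, and their mean was -1.10 in the first. Fads1 was at 8556 against 12815 and at 8870 against 13010 (-0.58 and -0.55), and a second Fads1 probe set at -0.54 and -1.67. On that Fads1 probe set the E+E signal was 79.1, below the filter level. The stearoyl-CoA desaturase Scd1, which makes oleate, was at 146400 on P+E against 131333 on P+P, and at 148794 on E+E against 140860 on E+P (0.16 and 0.08). Whether this probe set was saturated cannot be read from the values. A second probe set of Scd1 was at 16919 on P+E against 5506 on P+P, and at 13827 on E+E against 8950 on E+P (1.61 and 0.63). Scd2, the isoform typical of other tissues, was at 252 against 275 and at 296 against 374 (-0.10 and -0.30), and another of its probe sets was at 2.22 and 0.14. On that Scd2 probe set the P+P signal was 12.9, while P+E, E+E and E+P had 217, 233 and 208. The P+P array was thus the low one for the second probe sets of both Scd genes, and the part of its control values in this was not tested.

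**Figure D2:**
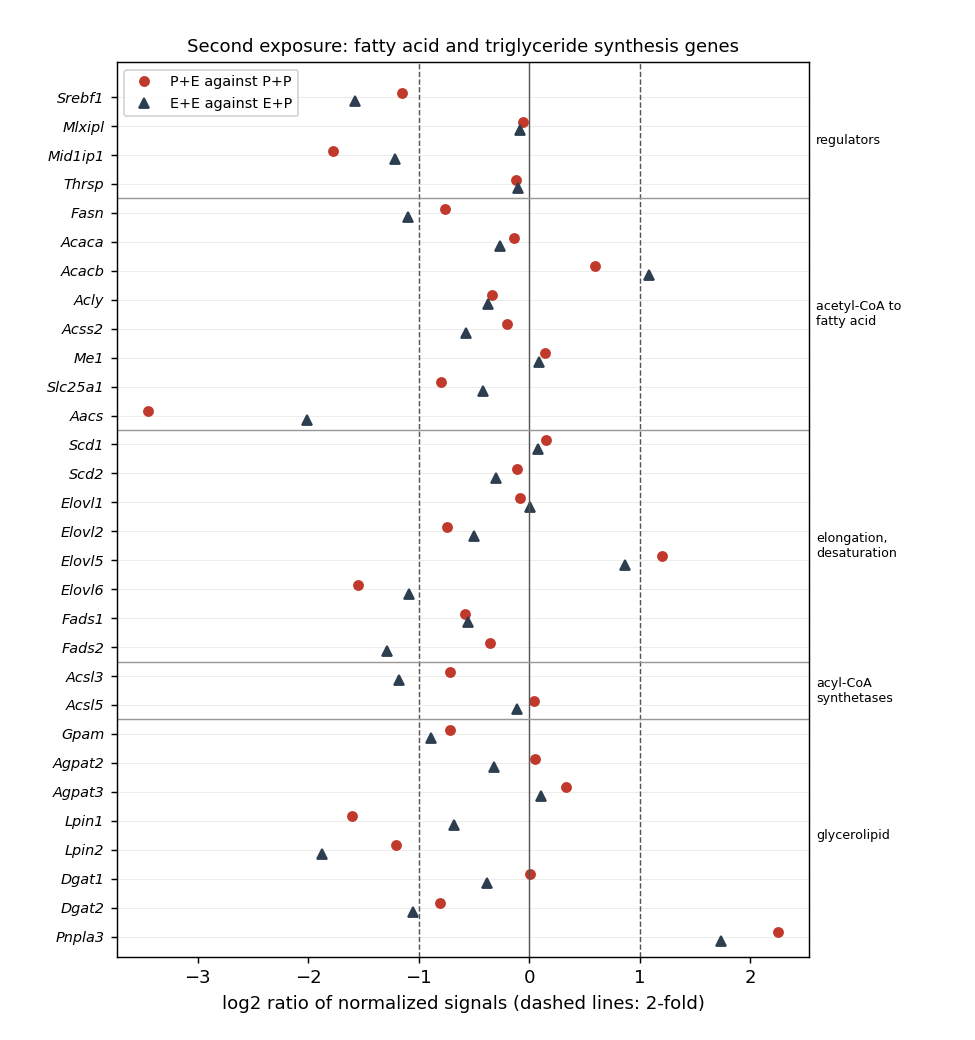
Log2 ratio of the second exposure for the 30 genes past the filter, ordered by role, with circles for P+E against P+P and triangles for E+E against E+P; 1 array per group, so no error bars, and dashed lines mark 2-fold. Most points lie left of 0; Aacs lies farthest left (-3.44 and -2.01), and Pnpla3, Elovl5 and Acacb lie right of 0.5 in both.

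Of the acyl-CoA synthetases, which activate fatty acids for further use, Acsl3 was at 386 on P+E against 659 on P+P, and at 481 on E+E against 1142 on E+P. It was 1.64-fold and 2.26-fold lower without overlap. This is the 1 Acsl3 probe set past the filter and can match several transcripts, and the mean of all 3 Acsl3 probe sets was at -0.35 and -0.74, short of 2-fold. Acsl5 was at 0.04 and -0.11, less than 1.1-fold in either pair.

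The first step of glycerolipid synthesis, the acylation of glycerol phosphate by the mitochondrial enzyme Gpam, had signals of 3680 on P+E against 6074 on P+P, and 3728 on E+E against 6939 on E+P. Gpam was 1.64-fold and 1.85-fold lower, short of 2-fold in both, while its second probe set was at 0.10 and -0.56. The acyltransferases of the next step were close to level, with Agpat2 at 0.05 and -0.31 and Agpat3 at 0.33 and 0.11. Of 4 Agpat3 probe sets past the filter, 2 were higher and 2 lower in each pair. They ranged from -0.23 to 0.33 in the first pair and from -0.51 to 0.11 in the second.

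The phosphatidic acid phosphatases Lpin1 and Lpin2, which make diacylglycerol, were both lower. Lpin2 was at 4437 on P+E against 10267 on P+P, and at 2743 on E+E against 10159 on E+P, with PBS arrays nearly level. It was 2.30-fold and 3.66-fold lower, and its other probe sets past the filter were at -0.97 and -1.62 and at -0.17 and -0.62. Lpin1 was at 7450 on P+E against 22710 on P+P, and at 5653 on E+E against 9102 on E+P. Its difference was 3.04-fold in the first pair and 1.61-fold in the second. Set against E+P, P+E was 1.22-fold lower. Whether the P+P or the E+P array was the unusual one for Lpin1 was not tested.

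The 2 enzymes that complete triglyceride were not alike. Dgat2 was at 8319 on P+E against 14571 on P+P, and at 6923 on E+E against 14381 on E+P, or 1.75-fold and 2.07-fold lower. Dgat1 was at 0.01 and -0.38. Mogat1, a monoacylglycerol acyltransferase, had signals of 150 on P+E, 83.1 on E+E, 79.0 on E+P and 93.6 on P+P and did not pass the filter.

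Pnpla3 encodes a lipid droplet protein with lipase and acyltransferase activities and is a known target of SREBP-1c. It had signals of 358 on P+E against 41.0 on P+P, and 280 on E+E against 53.8 on E+P. Both PBS signals lay below the filter level, so only a bound can be given: at least 2.45-fold higher in the first pair and at least 1.98-fold higher in the second. On the scale used for all genes its ratios were 2.25 and 1.74. Pnpla3 passed the filter through its signals on P+E and E+E alone, so its place among the higher genes is a description.

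Other probe sets of the same genes gave a second reading of the same RNA. Of the 30 genes, 19 had more than 1 probe set past the filter. The genes at least 2-fold apart in P+E against P+P had 7 further such probe sets, of which 6 kept the direction and 3 also reached 2-fold. In E+E against E+P all 9 further probe sets kept the direction and 4 reached 2-fold. The exception was a weak Elovl6 probe set at 0.18 in the first pair, whereas the other further probe set of Elovl6 was at -1.55 and -1.28.

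**Figure D3:**
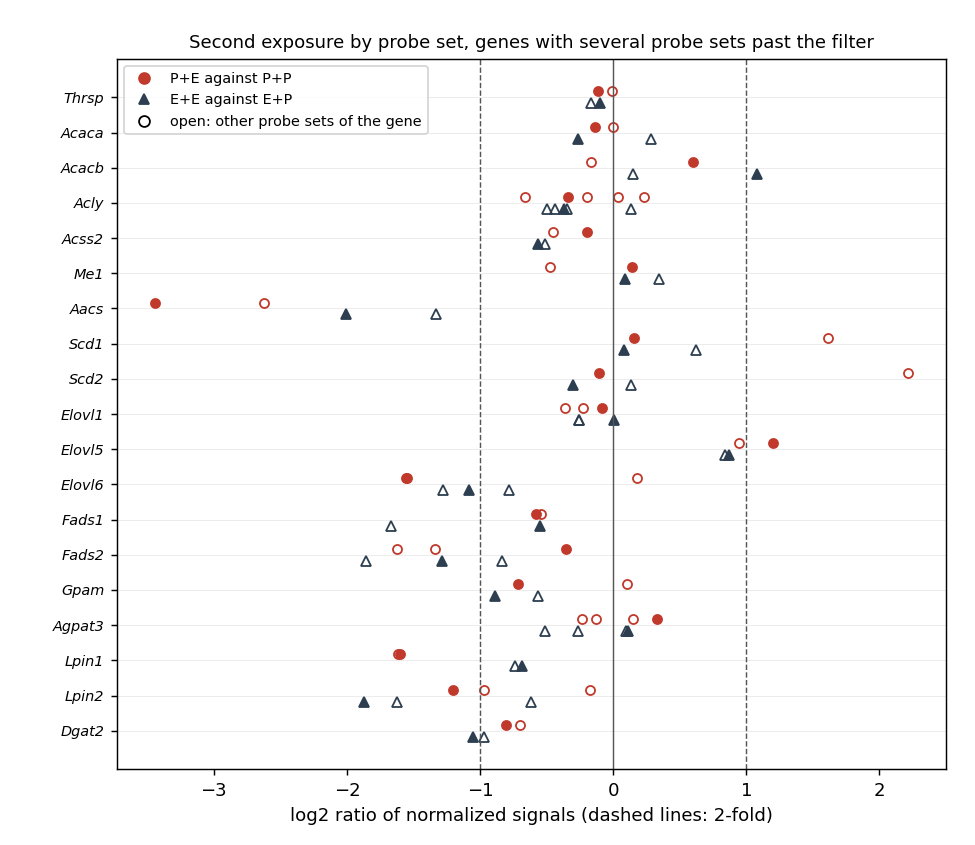
Log2 ratio of the second exposure for every probe set past the filter of the 19 genes that have several, 1 row per gene, with circles for P+E against P+P, triangles for E+E against E+P, filled symbols for the probe set used and open ones for the others; there are no replicates. Probe sets of Aacs, Lpin1, Fads2 and Dgat2 lie on 1 side of 0, while those of Scd1 and Scd2 spread from about 0 to 1.61 and 2.22 in the first pair.

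Some markers of other cells also differed between the arrays. Of 9 pancreatic acinar markers measured, 8 were at least 2-fold higher in both pairs (2.94% of all genes). Their PBS signals were largely below the filter level. Both were for Ctrb1, Cpa1, Cpb1, Cel and Clps, which with these set to the level were at 1.63 to 2.42. The summed signal of all 9 was 8780 on P+E, 8561 on E+E, 2512 on E+P and 2996 on P+P. Cela1, the marker not among the 8, was at -0.52 and -0.11 and held 1904 of the E+P sum and 2338 of the P+P sum. Neutrophil markers summed to 4075, 6595, 774 and 1340 in the same order (8 genes, 4 past the filter). S100a8 and S100a9, past 2-fold upward in both pairs, made up most of the P+E and E+E sums, and without them the sums were 544, 1064, 553 and 1099. Of the other 2 past the filter, Ngp was at -0.89 and 1.33 and Camp at -1.51 and 0.05. With its P+E signal set to the filter level, Camp was at -0.69 in the first pair. Adipocytes are rich in the same lipogenic enzymes. The 6 adipocyte markers measured, of which 2 passed the filter, summed to 1206, 781, 1061 and 563, so the pairs differed in direction. The 2 past the filter were Lipe, at 0.09 and -0.39, and Slc2a4, at 1.25 and -0.77. Adipoq, which defines adipocytes, had signals of 226 on P+E, 19.8 on E+E, 19.6 on E+P and 66.1 on P+P and did not pass the filter. All 10 markers of Kupffer cells, the macrophages of the liver, were below 0 in E+E against E+P (median -0.57), whereas 5 of 10 were in P+E against P+P (median -0.03). Their summed signal was 15898 on P+E, 18158 on E+E, 27509 on E+P and 17897 on P+P. The part of these cells in the ratios above was not tested.

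Genes that work beside the pathway were read from 7 lists of 68 genes, of which 61 were measured and 56 passed the filter. At least 2-fold higher in both second-exposure pairs were 3 of the 56, while 0 of them were lower by that much in both. Among all genes 2.94% and 1.9% were. Insig2, an endoplasmic reticulum protein that holds SREBP precursors back from cleavage, was at 35598 on P+E against 2250 on P+P, and at 21388 on E+E against 2523 on E+P. It was 15.5-fold and 8.35-fold higher. Its paralog Insig1, itself a gene that SREBPs turn on, was at 4121 against 7879 and at 2798 against 8623, or 1.90-fold and 3.05-fold lower. The 2 Insig genes thus lay on opposite sides of 0 in both pairs.

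Elovl3, an elongase of saturated and monounsaturated chains, was at 13156 on P+E against 3459 on P+P, and at 7147 on E+E against 1946 on E+P, or 3.77-fold and 3.61-fold higher. Gpat3, an endoplasmic reticulum enzyme of the same step as Gpam, was at 1263 against 323 and at 1660 against 403, or 3.57-fold and 3.81-fold higher. Within the same step, on the probe sets used, Gpat3 was higher and Gpam lower on the ethylbenzene arrays of both pairs. The second Gpam probe set, at 0.10 in the first pair, was not lower there. Agpat1 and Agpat5, of the next step, were at -0.33 and -0.41 and at 0.15 and -0.64.

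The coactivator gene Ppargc1b was at -0.69 and, with its E+E signal at the filter level, at -2.70. Prkaa2, a catalytic subunit of AMP-activated protein kinase, which inhibits both carboxylases, was at -1.28 and -0.69, and the regulatory subunit gene Prkab1 at 0.60 and 1.02. Slc2a2, the glucose transporter of hepatocytes, was at -0.69 and -0.83, and Cs, citrate synthase, at 0.40 and 0.41. The pentose phosphate genes Pgd and Rpia were at 0.40 and 0.46 and at 0.54 and 0.30. The fatty acid transporter gene Slc27a4 was at 0.99 and 0.77. Acsl6, with its P+E signal at the filter level, was at -0.23 and -0.38, and Hacd3, a dehydratase of the elongation cycle, at 0.44 and 0.21. Cyb5r3, which passes electrons to the desaturases, was at -0.10 and -0.50. In the lists of carbohydrate (7 genes past the filter) and NADPH supply (5), 0 genes were at least 2-fold apart in either pair, where 6.63% to 7.04% of all genes were in each direction.

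**Figure D4:**
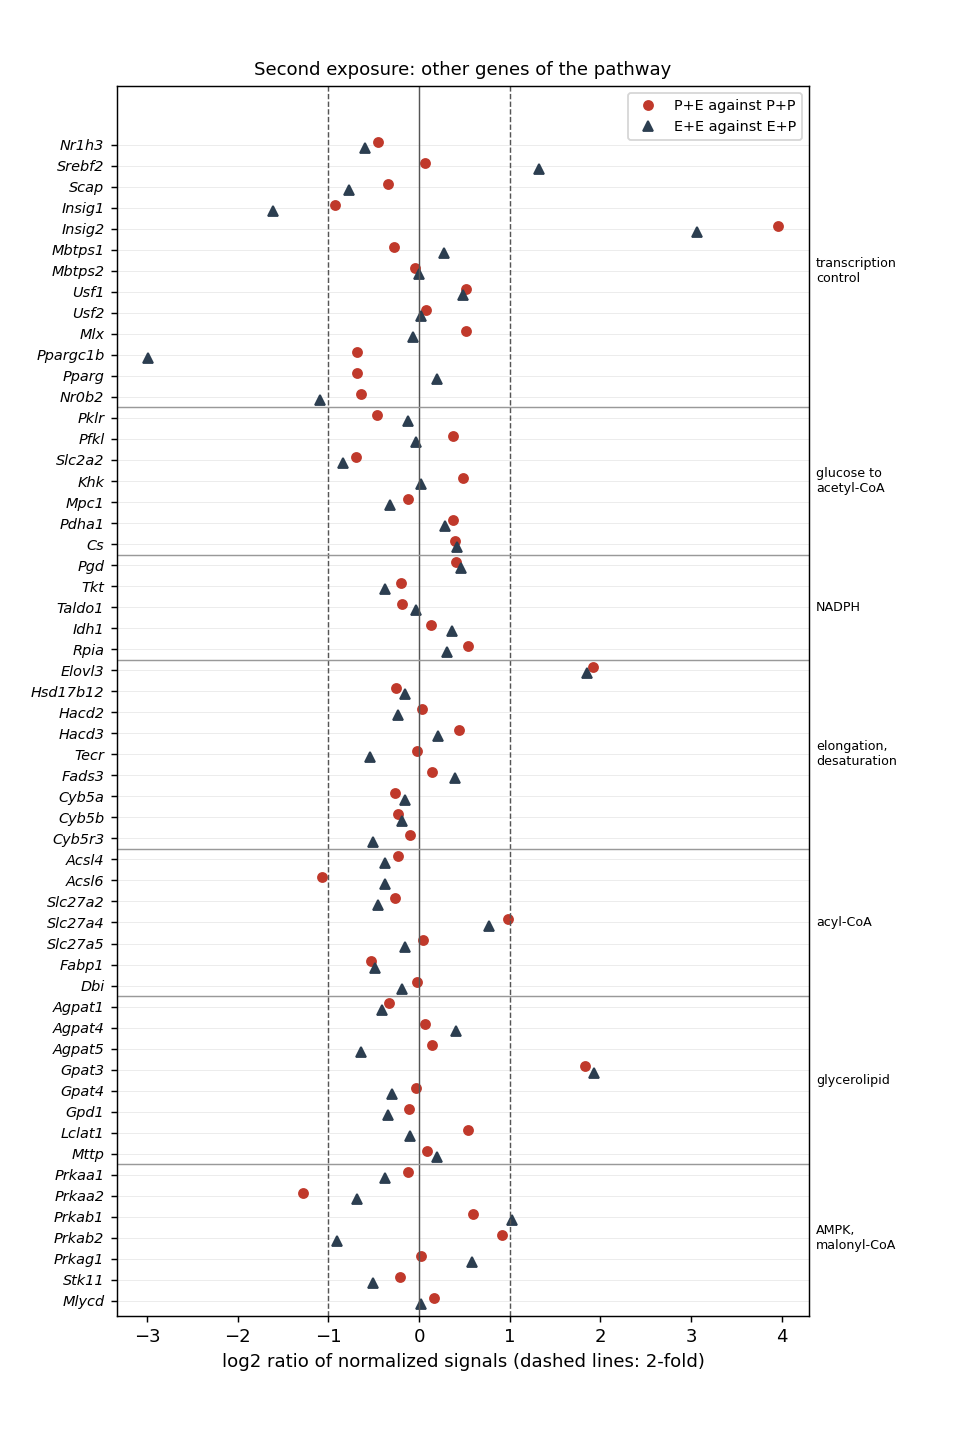
Log2 ratio of the second exposure for 56 other genes of the pathway past the filter, by list, with circles for P+E against P+P and triangles for E+E against E+P; 1 array per group, no error bars, and dashed lines at 2-fold. Insig2 (3.96 and 3.06), Elovl3 (1.91 and 1.85) and Gpat3 (1.83 and 1.93) lie right of the 2-fold line with both symbols.

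What was left of the first exposure after 7 days was read from E+P against P+P, whose mice had PBS as the second exposure, and from E+E against P+E, whose mice had ethylbenzene. Of the 30 genes, 2 were at least 2-fold lower in the first of these and none in the second, where 2.84% and 4.09% of all genes were. None was at least 2-fold higher, where 2.64% and 4.12% of all genes were. The medians were 0.02 and -0.04, beside -0.01 and -0.00 for all genes. The 2 lower genes were Lpin1, at 9102 on E+P against 22710 on P+P (2.49-fold), and Aacs, at 1445 against 2951 (2.01-fold). Both probe sets of Lpin1 were lower there, at -1.31 and -1.52. On E+E against P+E, Lpin1 was at -0.40 and Aacs at 0.43, so the difference in Aacs was of opposite sign. In both first-exposure pairs together 0 genes were at least 2-fold lower and 0 higher (0.252% and 0.243% of all genes), 10 were lower by any amount (25.5%) and 8 higher (23.4%). All 10 Kupffer markers were above 0 in E+P against P+P (median 0.64), and their part in the first-exposure ratios was not tested. The Lpin1 and Aacs differences rest on the P+P array, whose control probe sets stood apart, and the part of that array was not tested.

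Me1, malic enzyme, was lower to a similar degree in both first-exposure pairs, at 8914 on E+P against 13663 on P+P and at 9488 on E+E against 15087 on P+E. It was 1.53-fold and 1.59-fold lower, short of 2-fold. The second probe set of Me1 was at -0.87 and -0.05. With Thrsp (-0.31 and -0.29), Me1 was 1 of the 2 genes whose arrays after a first dose of ethylbenzene both lay below the other arrays, where 12.2% of all genes did. Mlxipl, Scd2 and Elovl1 were the 3 with both above, where 10.6% of all genes were, and none reached 1.5-fold on the probe sets used. Another Scd2 probe set past the filter was at 2.16 and 0.08. The first of these values rests on a weak P+P array (12.9), short of the filter level. On that probe set E+P (208) was not above P+E (217). Acsl3 was at 0.75 and 0.29 and Fads2 at 0.72 and -0.22. Of the 56 other genes, Fads3 was at least 2-fold lower in both, at -1.73 and -1.47, but its signals on E+P and E+E lay below the filter level, and with them set to that level it was at -0.79 and -0.93.

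**Figure D5:**
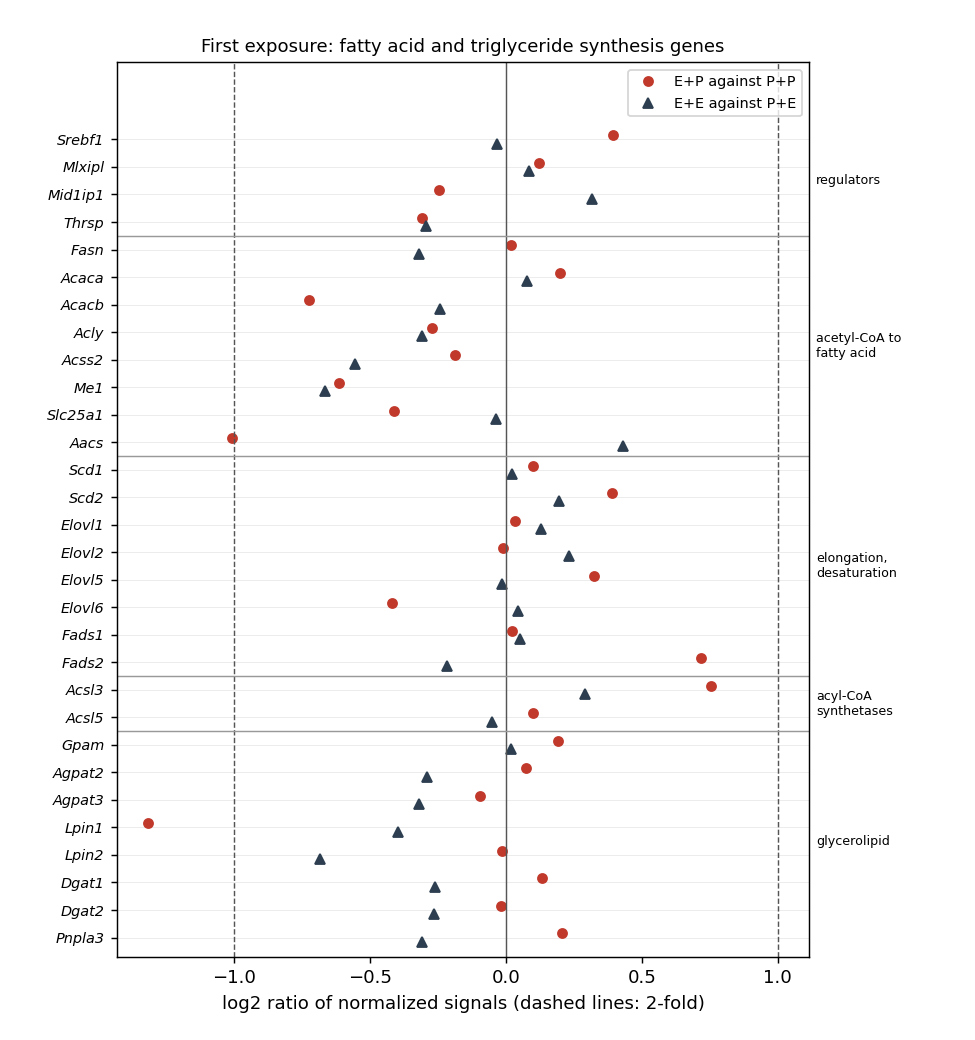
Log2 ratio of the first exposure for the 30 genes past the filter, ordered by role, with circles for E+P against P+P and triangles for E+E against P+E; 1 array per group, no error bars, and dashed lines at 2-fold. The circles of Lpin1 (-1.31) and Aacs (-1.01) lie beyond the 2-fold line, and every triangle lies within it.

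Whether the first exposure changed the response to the second was read from the difference of the second-exposure log2 ratios, E+E against E+P minus P+E against P+P. Only Aacs of the 30 genes had ratios at least 2-fold apart, with a difference of 1.44, where 15.4% of all genes had. Aacs was lower after the second dose in both groups of mice, and less so in those given ethylbenzene first, in which the PBS signal was lower. The next differences in size were -0.93 for Fads2, 0.92 for Lpin1 and -0.67 for Lpin2. The Fads2 value holds for the probe set used, since the other 2 were at -0.52 and 0.78 and the mean of all 3 at -0.22. For Fads2 and Lpin1 the arrays after the second dose were within 0.40 of each other on the log2 scale, and the arrays after PBS were farther apart (0.72 and -1.31). For Lpin2 it was the reverse, with E+E against P+E at -0.69 and E+P against P+P at -0.02. With the mean of all probe sets, Aacs was at 0.80, short of 2-fold, and Scd2 at -1.09. The differences hold the error of all 4 arrays, and a difference smaller than 2-fold does not show that the responses were alike.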

How the data were processed

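Gene expression was measured in liver RNA on 4 Affymetrix arrays, 1 for each group of mice, with the RNA of 3 or 5 mice pooled per group, per the labels. The deposited values were intensities, linear signals of 45101 probe sets per array. The summarising software was not given in the sources used here. From the values, the mean after trimming the lowest and highest signals was 500.0 on every array, and medians of 129.9 to 153.1 remained. From these intensities, the 4 arrays were quantile-normalized and put on the scale log2(signal + 43.2), 43.2 being the 25th percentile of all signals (numpy 2.4.6, pandas 2.3.3). Names came from the platform annotation, updated by Entrez identifier in a RefSeq table, which gave 1 symbol to 34945 probe sets, several to 932 and none to 9160. Each gene was represented by its probe set of highest mean signal, and genes under the median probe set in mean log2 signal were dropped, leaving 11509 of 18193. Signals below that level were set to it for bounds. No p-value or error was computed from single arrays, and the number of arrays limits the precision. The steps were tested on simulated arrays. The genes, lists and tests were chosen with earlier results of these data known. All measured genes of the pathway were named, and of the other lists those at least 2-fold apart in both pairs of an exposure and up to 2 more per list with the largest mean second-exposure ratio. Past the filter were 6 endothelial, 6 stellate and 3 bile duct markers. At least 2-fold higher in both second-exposure pairs were 1 (Lyve1), 0 and 1 (Sox9), where 2.94% of all genes were. Both PBS signals of Sox9 lay below the filter level, which it passed through P+E and E+E alone. With these PBS signals set to the level, Sox9 was at 1.43 and 1.87. At least 2-fold lower in both pairs were 0 of the markers, where 1.9% of all genes were. Below 0 in P+E against P+P were 4, 5 and 1 of these markers, and in E+E against E+P 3, 4 and 1. Alternatives covered the scaling, pseudocount, filter, probe set choice and size rule.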

Additional observations from a re-analysis of the deposited data

How the results depend on the processing

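The counts, medians and gene ratios were recomputed under the alternatives. No ratio of a gene at least 2-fold apart changed sign, and the medians of the 30 genes moved by less than 1.5-fold. Of the values of single genes, 1340 were within 1.5-fold of those reported and 20 were not. The 2 genes higher in E+E against E+P became 1 with the pseudocount at the median signal, with the filter at the 75th percentile, with the mean of all probe sets and with signals under the filter level raised to it. The 2 higher in P+E against P+P became 1 with the 75th percentile filter and 1 without probe sets that can match several transcripts, where Elovl5 was at 0.94. That setting also left out Acsl3, so that 8 in place of 9 were lower in E+E against E+P. The 2 lower in E+P against P+P became 1 with the median pseudocount and 1 with the mean of all probe sets, which also gave 1 higher there in place of 0. A 1.5-fold rule gave 12 lower in P+E against P+P in place of 6 (17.3% of all genes), 4 lower and 2 higher in E+P against P+P (8.85% and 7.83%), and 2 lower in E+E against P+E (10.5%). The 5 genes lower in both second-exposure pairs were the same 5 under each alternative to the scaling, pseudocount, filter and low signals, whereas the mean of all probe sets gave 4: Fads2 passed, and Elovl6 (-0.97) and Lpin2 (-0.95) were short of 2-fold in P+E against P+P. Pnpla3 was not at least 2-fold higher in both with the 75th percentile filter or with low signals at the filter level. Apart from these fewer genes or higher floors, the cause of each difference was not tested. No paired analysis was possible because each group was 1 pool on 1 array. Single arrays give no spread between animals, and signals near background give only bounds.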
